A study of Mus musculus with 4 samples.

Results

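The genes described here are 9 markers of mouse embryonic stem cells: Dppa2, Dppa3, Dppa4, Dppa5a, Utf1, Zfp42, Tcl1, Nr0b1 and Prdm14. They were taken by name from the 18194 genes that had a probe set with a single gene symbol on the array, and every probe set that carried only their symbol was used. This gave 12 probe sets: 3 for Utf1, 2 for Dppa2 and 1 for each of the others. The samples were murine embryonic stem cells (CM7/1) made to overexpress Hey1 or Hey2, transcriptional repressors that act downstream of the Notch receptors. Each of these cell populations, named below as the Hey1 or the Hey2 line, was profiled as an untreated control (uninduced) and after 48 h in 1000 ng/ml doxycycline (labelled induced), with 1 single-colour Affymetrix array in each of the 4 groups. The series is titled as a study of how Hey factors regulate target genes, and its design states that there were no replicates. A difference between 2 arrays therefore cannot be set against a replicate spread, and no p-value is given for it. The sources used here do not give the promoter that drives the introduced genes or the number of clones in a line. The 4 groups hold no doxycycline-treated cells without an introduced gene, so an effect of the drug and an effect of the factor cannot be told apart.

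Embryonic stem cells keep the identity of the early epiblast through a network of transcription factors around Pou5f1, Sox2 and Nanog, and the genes described here are transcribed in that state and silenced as cells differentiate. The Dppa names stand for developmental pluripotency associated, and they join genes of unlike function: Dppa2 and Dppa4 are related chromatin proteins that work as a pair, Dppa3 (also called Stella) protects the maternal genome of the zygote from loss of DNA methylation, and Dppa5a is an RNA-binding protein. Utf1 is a chromatin-bound protein, Zfp42 (Rex1) a zinc finger protein widely used as a reporter of the naive state, and Prdm14 a regulator of germ cell formation that holds back DNA methyltransferases and FGF signalling. Tcl1 is a coactivator of the kinase Akt, and Nr0b1 (Dax1) is an orphan nuclear receptor that binds and restrains other pluripotency factors.

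All values below are log2 probe set values made with RMA by the authors. All 9 genes reached the level filter, the median of all values on the arrays (6.05 on the log2 scale), on at least 1 array, as did 12098 genes in all. Of the 12 member probe sets, 11 passed, and the exception was a Utf1 probe set. The labelled cell type was borne out by its markers: the 7 stem cell markers, of which Dppa3 and Zfp42 belong to the genes described here, all passed the filter, and their summed level was 15.71 and 15.73 without and with induction in the Hey1 line and 15.61 and 15.69 in the Hey2 line. Of the listed markers of other cell types, the filter was passed by 2 of 7 for feeder fibroblasts, 3 of 7 for primitive endoderm, 4 of 6 for trophoblast, 3 of 5 for neuroectoderm and 3 of 4 found on the array for mesoderm. The probe sets of the introduced genes did not go with the labels: Hey1 had an induced minus uninduced difference of -0.23 in the Hey1 line, and Hey2 had 0.09 in the Hey2 line at values of 4.25 and 4.34, below the filter. The sources used here do not say whether these probe sets detect the introduced RNA, and every induced value below is that of the array labelled so.

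**Figure D1:**
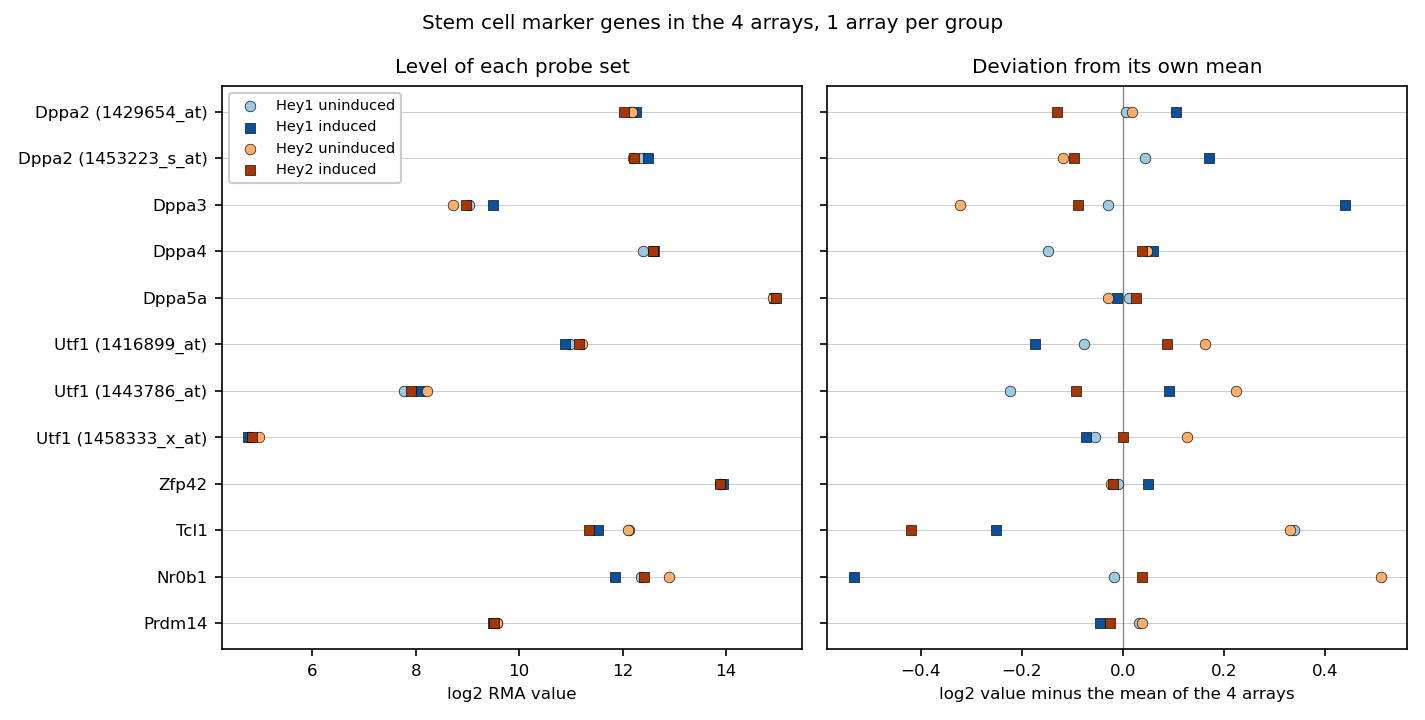
The 12 probe sets of the 9 genes in the 4 arrays, 1 array per group. The left side plots the log2 RMA value and the right side its deviation from the probe set's mean over the 4 arrays. The induced arrays (squares) of Tcl1 lie at 11.53 and 11.36, to the left of both uninduced arrays (circles), while the points of Dppa5a, Zfp42 and Prdm14 span less than 0.09.

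No member differed 2-fold between induced and uninduced cells of either line. In the Hey1 line 0 of 9 passed 2-fold, against 0.471% of all genes compared, and in the Hey2 line 0 of 9, against 0.926%. At a smaller difference of 0.5 on the log2 scale (1.41-fold), 2 of 9, Tcl1 and Nr0b1, were lower in the Hey1 line, where the share of all genes was 0.951%. In the Hey2 line 1 of 9, Tcl1, was lower by that much, where 4.25% of all genes were. None of the 9 was higher by 0.5 in either line, against 2.47% of all genes for the Hey1 line and 4.4% for the Hey2 line. The median of the 9 differences was -0.02 for the Hey1 line, -0.01 for the Hey2 line, beside -0.01 and -0.02 over all genes. The difference had the same sign in both lines, which share no array, for 7 of 9 members, against 63.6% of all genes compared. Most of these genes thus stood near the centre of all genes, and Tcl1, Nr0b1 and Dppa3 lay apart from the other 6.

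**Figure D2:**
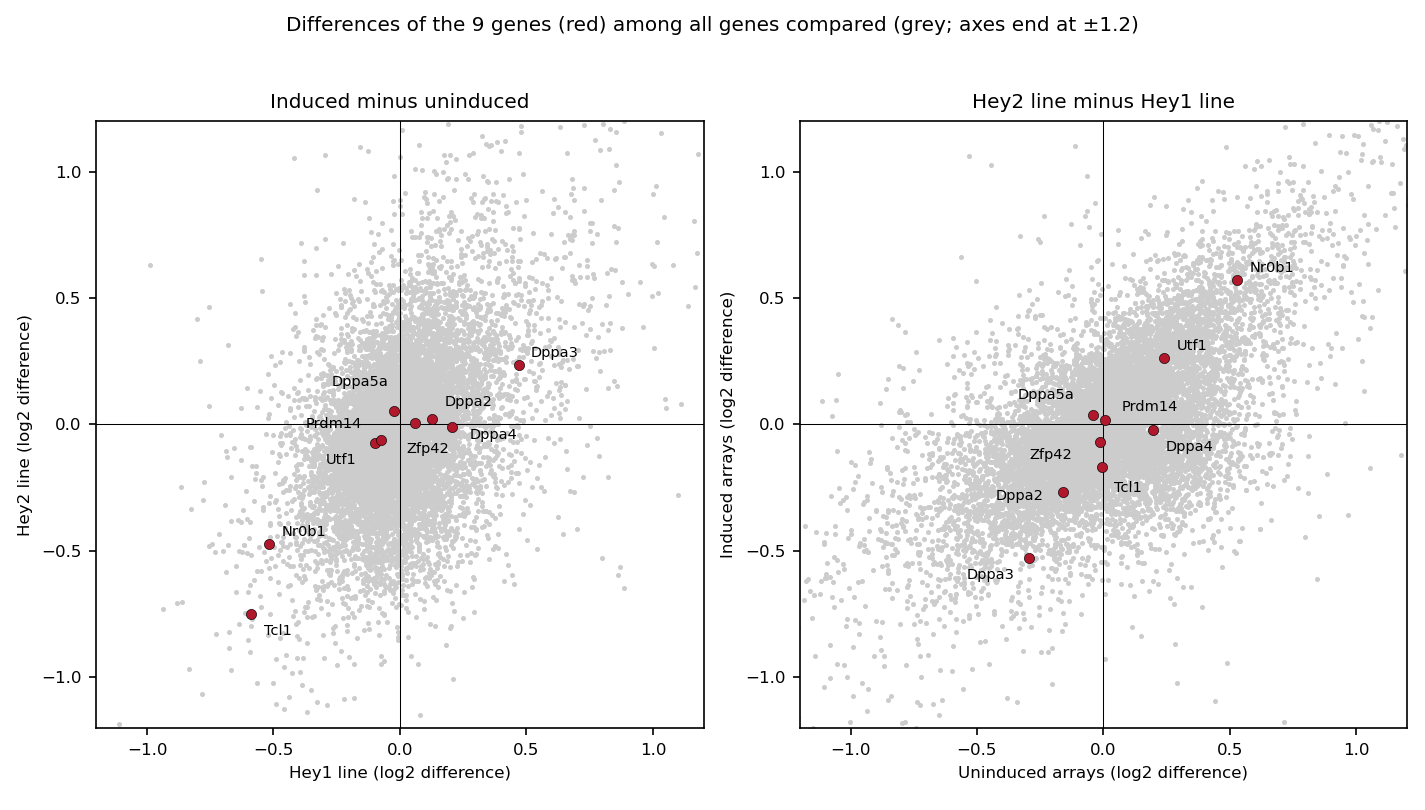
Log2 differences of the 9 genes (red) among the 12098 genes compared (grey), with axes that end at 1.2 on either side. On the left, induced minus uninduced in the Hey1 line (horizontal) and the Hey2 line (vertical) puts Tcl1 (-0.59, -0.75) and Nr0b1 (-0.52, -0.47) at lower left and Dppa3 (0.47, 0.23) at upper right. On the right, Hey2 line minus Hey1 line in uninduced (horizontal) and induced (vertical) arrays puts Nr0b1 (0.53, 0.57) at upper right and Dppa3 (-0.29, -0.53) at lower left.

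Tcl1, which binds Akt and promotes its activation and the proliferation of stem cells, had the largest induced minus uninduced difference of the 9 in both lines. Its single probe set read 12.12 without and 11.53 with induction in the Hey1 line, and 12.11 and 11.36 in the Hey2 line. Both induced values lay below both uninduced values, and the uninduced arrays differed by only 0.01. The induced cells were lower by a factor of 1.5 in the Hey1 line, a log2 difference of -0.59, and of 1.68 in the Hey2 line, a difference of -0.75. Only 0.546% of all genes compared lay lower in the Hey1 line, and 0.835% did in the Hey2 line. Counting genes at least as far down as Tcl1 in both lines at once gave 18 others of the 12098.

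Nr0b1, whose protein binds Pou5f1 and Nr5a2 and limits their activity, was also lower in the induced array of both lines, but its level differed between the lines as well. It read 12.36 without and 11.84 with induction in the Hey1 line, and 12.89 and 12.42 in the Hey2 line. The groups overlapped, since the induced Hey2 array lay slightly above the uninduced Hey1 array. The difference was -0.52 in the Hey1 line (1.43-fold), with 0.835% of all genes lower, and -0.47 in the Hey2 line (1.39-fold), with 5.11% lower. At least as far down in both lines were 52 other genes. Of the 9 genes Nr0b1 had the widest range over the 4 arrays, 1.04, against a median range of 0.34 for all genes compared.

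In both lines the summed level of the 5 neuroectoderm markers was lower in the induced array too, at 9.17 and 8.89 in the Hey1 line and 8.88 and 8.42 in the Hey2 line. Of these markers, 1 of 3 compared was above 0 in the Hey1 line and 0 of 3 in the Hey2 line. The Sox1 probe set with the highest mean, which entered the sum, was lower by 0.78 and 1.07. Its other probe set, above the level filter, had differences of only -0.01 and -0.36. Zic1 and Neurog2 lay below the level filter on all 4 arrays. For each of the other 4 lists of markers of other cell types the induced minus uninduced difference in summed level had opposite signs in the lines. For feeder fibroblasts they were 8.59 and 8.88 in the Hey1 line and 8.35 and 8.23 in the Hey2 line, and for trophoblast 8.94, 9.18, 9.15 and 8.88 in the same order. For primitive endoderm they were 11.80, 11.90, 11.82 and 11.73, and for mesoderm 8.158, 8.161, 8.46 and 8.10. The mesoderm sums of the Hey1 line were thus nearly equal, and their sign carries little weight. As a measure of RNA integrity, the 3' control probe set of Tfrc exceeded the 5' control by 0.95 (uninduced) and 0.84 (induced) on the log2 scale for the Hey1 line, and by 0.67 and 0.96 for the Hey2 line. The same measure was higher in the induced array of both lines for the other 3 controls. For Pcx it was 1.38 and 1.43 (Hey1 line) and 1.33 and 1.56 (Hey2 line), for Actb 0.48 and 0.51, then 0.39 and 0.42, and for Gapdh 0.040 and 0.042, then 0.012 and 0.032. The part of these values in the lower Tcl1 and Nr0b1 was not tested. In bulk RNA, fewer cells that transcribe a gene and less RNA per cell cannot be told apart.

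The sequences before the starts of Tcl1 and Nr0b1 are shown because these genes were lower in both lines, and that of Zfp42 because it was steady. RefSeq promoter windows of the assembly GRCm38.p6 were found for 4 of the 9 genes, Utf1 being the fourth. Each line gives the 250 bases before the annotated gene start, 5′ to 3′ on the strand of the gene, with matches to the motifs named below in capitals. The windows are chr12:105222738-105222987 (minus strand) for Tcl1, chrX:86191525-86191774 (plus strand) for Nr0b1 and chr8:43307010-43307259 (minus strand) for Zfp42.
Tcl1: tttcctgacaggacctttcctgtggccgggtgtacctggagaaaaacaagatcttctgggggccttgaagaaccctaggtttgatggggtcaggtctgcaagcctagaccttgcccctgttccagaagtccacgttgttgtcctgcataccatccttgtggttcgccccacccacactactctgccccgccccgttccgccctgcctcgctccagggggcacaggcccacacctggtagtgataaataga
Nr0b1: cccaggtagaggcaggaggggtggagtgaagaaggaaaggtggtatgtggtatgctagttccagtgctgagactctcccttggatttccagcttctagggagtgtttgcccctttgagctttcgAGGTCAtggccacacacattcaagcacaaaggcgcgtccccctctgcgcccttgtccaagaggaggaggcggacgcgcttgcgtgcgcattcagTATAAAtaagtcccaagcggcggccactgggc
Zfp42: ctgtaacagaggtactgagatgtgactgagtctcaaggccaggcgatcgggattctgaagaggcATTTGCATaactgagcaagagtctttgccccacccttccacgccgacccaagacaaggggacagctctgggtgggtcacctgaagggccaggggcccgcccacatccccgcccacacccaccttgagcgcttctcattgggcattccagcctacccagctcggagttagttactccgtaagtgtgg
The motifs searched on both strands were CACGTG and CACGCG, letters that Hey proteins bind, the octamer ATGCAAAT bound by Pou5f1, the nuclear receptor half-site AGGTCA and the TATA box letters TATAAA, and none of these matches overlapped another. Neither CACGTG nor CACGCG was found in any of the 4 windows, and these occur in 6.02% and 7.62% of the 32851 promoter windows of the same length. The Zfp42 window held the octamer, read as ATTTGCAT on the printed strand and starting 186 bases before the gene start, which 1.60% of all windows hold. The Nr0b1 window held AGGTCA, starting 126 bases before the gene start, as do 14% of all windows, and TATAAA, starting 32 bases before it, as do 12.4%. No motif searched was found in the Tcl1 and Utf1 windows. These matches are descriptions of the letters, and the series holds no binding data for them.

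Dppa3 was the member with the highest induced minus uninduced difference in both lines. It read 9.02 without and 9.49 with induction in the Hey1 line, and 8.73 and 8.96 in the Hey2 line. The induced array was the higher in each line, but the groups overlapped, because the induced Hey2 array lay below the uninduced Hey1 array. The difference was 0.47 in the Hey1 line (1.38-fold), where 97.2% of all genes compared lay lower, and 0.23 in the Hey2 line (1.18-fold), where 85.4% did. At least as far up in both lines were 231 other genes, 1.91% of those compared.

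Dppa2 and Dppa4, the paired chromatin proteins, differed by at most 0.21 between induced and uninduced arrays of either line. The main Dppa2 probe set, that with the higher mean, read 12.37 without and 12.49 with induction in the Hey1 line and 12.21 and 12.23 in the Hey2 line. Its second probe set read 12.16 and 12.26, then 12.17 and 12.03. Differences were thus 0.13 and 0.10 in the Hey1 line and 0.02 and -0.15 in the Hey2 line, where the probe sets did not share a sign. Dppa4 read 12.40 and 12.61 in the Hey1 line and 12.59 and 12.59 in the Hey2 line, with differences of 0.21 and -0.01. Only the uninduced Hey1 array stood below the other 3 for Dppa4. In the Hey1 line 88.2% of all genes compared lay below Dppa4 and 79.4% below Dppa2. Among genes within 1 log2 unit of their mean level, 96.1% of 1051 lay below Dppa4 and 89.0% of 1228 below Dppa2. In the Hey2 line these shares were 46.8% and 56.1%.

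Zfp42, Dppa5a and Prdm14 were nearly level across the 4 arrays. Zfp42 read 13.89 and 13.95 in the Hey1 line and 13.87 and 13.88 in the Hey2 line, uninduced first, which is a range of 0.07. Only 2.10% of all genes compared had a smaller range, and among the 362 genes within 1 log2 unit of its mean level 13.0% had. Dppa5a read 14.94 and 14.92 in the Hey1 line and 14.90 and 14.96 in the Hey2 line. Its range of 0.05 was narrower than that of all but 0.909% of genes, but 22.2% of the 99 genes of like level had a smaller range, and its values lay close to the highest value on any array, 15.20. Prdm14 read 9.57 and 9.49 in the Hey1 line and 9.57 and 9.51 in the Hey2 line, a range of 0.08. At its more moderate level, where 3970 genes lay within 1 log2 unit, 2.54% had a smaller range. Both induced arrays of Prdm14 were the lower of their line, by 0.08 and 0.06.

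Utf1 depended on the probe set that was read. The main probe set read 10.98 and 10.89 in the Hey1 line and 11.22 and 11.15 in the Hey2 line, with induced minus uninduced differences of -0.10 and -0.07. The second read 7.77 and 8.09 in the Hey1 line and 8.22 and 7.90 in the Hey2 line, with differences of 0.31 and -0.32. The third lay between 4.77 and 4.97 on all arrays, below the level filter. The probe sets therefore gave Utf1 opposite signs in the Hey1 line and the same sign in the Hey2 line, with the weaker probe set showing the larger differences.

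The response that the lines share was tested with limma, in a fit over all 12098 genes with line as a block and Benjamini-Hochberg adjustment. This takes induction of Hey1 and of Hey2 as repeats of the same treatment and leaves 1 residual degree of freedom. It called 0 genes at an adjusted p of 0.05, and 1598 genes, 13.2%, had an unadjusted p under 0.05, among them 3 of the 9. Tcl1 had a mean difference of -0.67 ± 0.09 (SE) with an adjusted p of 0.237 by limma, and was lower in 2 of 2 lines. Nr0b1 had -0.49 ± 0.08 with an adjusted p of 0.264, and was likewise lower in both lines. Dppa3 had 0.35 ± 0.10 with an adjusted p of 0.320, and was higher in both. The mean differences of the other 6 genes lay between -0.09 and 0.10. When the prior variance was made level-dependent and outlier-resistant, limma called 241 genes higher and 192 lower. Tcl1 (adjusted p = 0.000147) and Nr0b1 (adjusted p = 0.000376) were among the lower ones, and over the other alternatives their highest adjusted p was 0.321 and 0.348. The 1 residual degree of freedom is the difference between the responses of the lines, so an unlike response to Hey1 and Hey2 counts as spread. Each SE also draws on a variance shared over all genes, and does not measure the spread of that gene alone. The labels do not state separate cultures, and the p-values then concern only these samples, whose remaining spread may be technical.

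Between the lines, Nr0b1 and Dppa3 had the largest differences of the 9 genes in both treatments when each gene was read from its main probe set, and none of the 9 passed the test of the line difference given below. Among uninduced arrays Nr0b1 was higher in the Hey2 line by 0.53. It was the 1 member of 9 higher by 0.5 or more, against 6.6% of all genes, and 0 of 9 were lower by that much, against 6.29%. Among induced arrays Nr0b1 was higher by 0.57, the 1 member of 9 past 0.5 where 5.74% of all genes were, and Dppa3 was lower by 0.53, again 1 of 9, where 4.05% were. Dppa3 was also lower in the uninduced Hey2 line, by 0.29, a difference that 33.1% of all genes exceeded in size. Utf1 was higher in the Hey2 line by 0.24 and 0.26 in its main probe set, while the second had 0.45 and -0.18. No member passed 2-fold between the lines, against 1.96% of all genes in uninduced and 1.61% in induced arrays. Tcl1 differed by -0.01 in uninduced and -0.17 in induced arrays. The line difference had the same sign in both treatments for 7 of 9 members, against 71.4% of all genes.

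In the same limma fit, the coefficient of line tests the difference of the Hey2 and Hey1 lines over both induction states. It called 111 of 12098 genes, 0.918%, and 0 of the 9 members, of which 3 had an unadjusted p under 0.05, as did 28.3% of all genes. Nr0b1 was closest, with 0.55 ± 0.08 (SE) and an adjusted p of 0.059 by limma, and was higher in both Hey2-line arrays than in the Hey1-line array of the same treatment. It passed in 4 of 7 alternatives, with adjusted p over all settings between 1.6e-05 and 0.086. Dppa3 had -0.41 ± 0.10 with an adjusted p of 0.103, and passed in 2 of 7. Utf1 had 0.25 ± 0.08 with an adjusted p of 0.150, and Dppa2 had -0.21 ± 0.08 with 0.202; each passed in 1 of 7 alternatives, that with the other prior variance (adjusted p = 0.0147 and 0.0150). For Tcl1 (-0.09 ± 0.09), Dppa4 (0.09 ± 0.10), Zfp42 (-0.04 ± 0.08), Prdm14 (0.01 ± 0.08) and Dppa5a (-0.0026 ± 0.08) the estimate was smaller than its SE.

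The nearest genes with a compared probe set on either side, in the order of the RefSeq gene table of GRCm38.p6, were read beside each member, a comparison chosen after the values were seen. Tcl1 lies next to the related Tcl1b genes, which had small differences in the Hey1 line and lower induced values in the Hey2 line. These were 0.13 and -0.62 for Tcl1b1, 0.09 and -0.55 for Tcl1b3 and -0.02 and -0.65 for Tcl1b4, Hey1 line first. Tcl1b1 read 7.07 and 7.20 in the Hey1 line and 7.34 and 6.73 in the Hey2 line, and its probe set and that of Tcl1b3 carry the suffix that marks probes shared with other transcripts, so these related genes may not be read apart. On the other side of Tcl1, Tunar had -0.41 and -0.09, Atg2b -0.01 and -0.05 and Gskip -0.15 and -0.41. Tunar passed the level filter only on the uninduced Hey1 array (6.27). The medians over the 6 neighbours of Tcl1 were -0.02 and -0.48. In the Hey2 line 3 of the 6, the Tcl1b genes, were lower by 0.5 or more, against 4.25% of all genes. The neighbours of Nr0b1 had medians of -0.05 and 0.08 in the Hey1 and Hey2 lines, and none of the 6 passed 0.5 in either. Of all genes, 2.47% were higher and 0.951% lower by that much in the Hey1 line, and 4.4% and 4.25% in the Hey2 line. Some of these neighbours lie far from Nr0b1 on the chromosome.

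**Figure D3:**
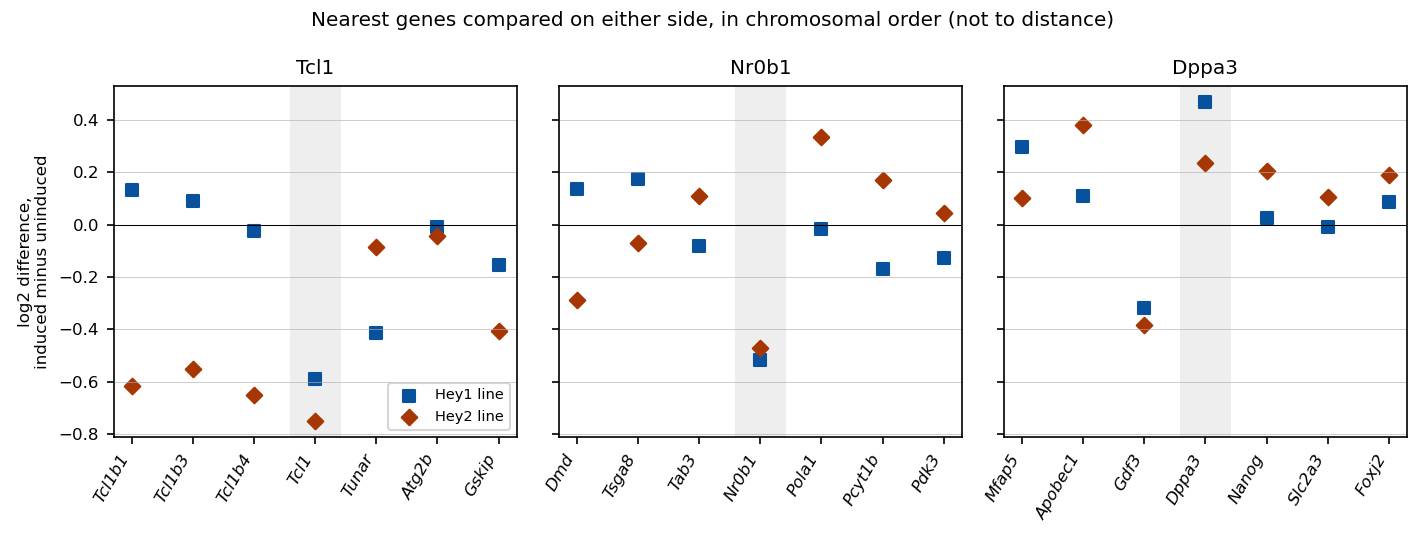
Induced minus uninduced log2 differences in the Hey1 line (squares) and the Hey2 line (diamonds) of Tcl1, Nr0b1 and Dppa3 (shaded) and of the 3 nearest compared genes on each side, in chromosomal order and not to distance. Tcl1 is low in both lines, whereas Tcl1b1, Tcl1b3 and Tcl1b4 lie between -0.02 and 0.13 in the Hey1 line and between -0.65 and -0.55 in the Hey2 line.

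Dppa3 stands in a cluster of genes active in stem cells, between Gdf3, a TGF-beta family ligand, and Nanog, a core factor of the pluripotency network. Gdf3 had differences of -0.32 and -0.38, opposite in sign to Dppa3, and Nanog had 0.02 and 0.21. Among uninduced arrays Nanog, like Dppa3, was lower in the Hey2 line, by 0.54. Dppa4 and Dppa2 are next to each other, and Morc1, the next gene compared, had -0.03 and 0.48. Their other neighbours were higher in the induced array of both lines: Dzip3 had 0.48 and 0.51, Cip2a 0.35 and 0.36, Nectin3 0.27 and 0.40, Plcxd2 0.40 and 0.44 and Phldb2 0.73 and 1.18. These genes are not close: Dzip3 and Cip2a start 613954 and 683883 bases from the start of Dppa2. Nectin3, Plcxd2 and Phldb2 start 1896070, 2324474 and 2537505 bases from that of Dppa4. The medians over the 6 neighbours were 0.31 and 0.42 around Dppa2 and 0.34 and 0.46 around Dppa4. Ooep, an oocyte gene beside Dppa5a, had -0.28 and -0.21 where Dppa5a had -0.02 and 0.05.

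Genes whose 4 values were most like those of a member were found by the Euclidean distance between values centred on each gene's mean, for the 3 members with an SD of at least 0.3 over the 4 arrays. Closest to Tcl1 were Slc12a8 (distance 0.11), Fgf3 (0.11) and Nfkbia (0.13). Nfkbia, the inhibitor of NF-kappa-B, read 11.84 and 11.16 in the Hey1 line and 11.80 and 10.91 in the Hey2 line. Closest to Nr0b1 were Igf2os (0.07), Marveld1 (0.08) and Mapkapk3 (0.12), and closest to Dppa3 were Rpgr (0.07), Irgm2 (0.08) and Plin2 (0.08). Fgf3 passed the level filter only through its uninduced arrays (6.27 and 6.18), and Igf2os only on the uninduced Hey2 array (6.16). Each distance rests on 4 arrays.

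Related genes were read from lists drawn up for these comparisons. The common-response test with limma called 0 of their compared members, but it called 0 of all 12098 genes, so it cannot set them apart. In the pluripotency network, 21 of 21 genes were compared, with medians of -0.02 and -0.01 in the Hey1 and Hey2 lines. Klf2, a naive-state factor, was the only one lower by 0.5 or more, in both lines. It read 12.73 and 12.13 (Hey1 line), then 12.99 and 12.33 (Hey2 line). The Hey1 line had 0.951% of all genes that much lower, the Hey2 line 4.25%. In the Hey2 line 3 of 21 were higher by 0.5 or more, namely Klf4 (0.61), Tbx3 (0.72) and Tfcp2l1 (0.55), which had -0.13, -0.39 and 0.03 in the Hey1 line; of all genes, 4.4% were that much higher in the Hey2 line.

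Genes described elsewhere as dependent on Dppa2 and Dppa4 included genes of the 2-cell embryo, and 4 of the 7 found on the array were compared. Zfp352, a zinc finger gene of that stage, read 6.09 and 7.43 in the Hey1 line and 5.80 and 5.95 in the Hey2 line. Among the compared genes of the 5 related lists it was the only one past 2-fold between induced and uninduced cells. Its difference was 1.34 for the Hey1 line, where 0.471% of all genes passed 2-fold. Both Hey2-line values of Zfp352 lay below the level filter, and its uninduced Hey1 value lay close to it. The other Zfp352 probe set had 1.97 (Hey1 line) and 0.10 (Hey2 line), and only its induced Hey1 value, 7.57, reached the filter. Mael, a piRNA pathway gene, had 0.65 and 0.16, and the meiosis gene Syce1 had 0.51 and 0.35. The cardiac factor Nkx2-5 had -0.51 and -0.75, but it passed the level filter only through its uninduced arrays. It read 6.23 and 5.71 in the Hey1 line and 6.50 and 5.75 in the Hey2 line. Tcstv1, Tcstv3 and Duxf3 lay below the level filter on all 4 arrays and were not compared. Tcstv3 read 3.20 and 5.72 in the Hey1 line, a difference of 2.52, and 3.42 and 3.24 in the Hey2 line. Tcstv1 had differences of 0.87 and 0.0033, and Duxf3 had 0.32 and 0.06. Dppa2 and Dppa4 themselves differed by 0.13 and 0.21 in the Hey1 line.

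The 5 genes described elsewhere as repressed by Prdm14 were each read from their main probe set. Of these, 5 of 5 had positive differences in the Hey1 line and 4 of 5 in the Hey2 line. Of all genes compared, 46.8% and 45.6% were above 0. The medians of the 5 genes were 0.21 and 0.23. Dnmt3a, a de novo DNA methyltransferase, read 9.77 and 10.53 in the Hey1 line and 9.74 and 10.46 in the Hey2 line, and its 5 probe sets had differences of 0.51 to 0.76 and of 0.56 to 0.85. Dnmt3l, its catalytically inactive partner, had 0.21 and 0.27, and the receptor gene Fgfr1 had 0.35 and 0.23. Another Fgfr1 probe set had -0.03 and 0.35. Dnmt3b had 0.10 and 0.13. Fgfr2 had 0.12 and -0.58, and another of its probe sets, below the level filter, had -0.39 and -0.46. Prdm14 itself had -0.08 and -0.06 at values that spanned 0.08.

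Among partners and relatives of the members, 13 were compared, with medians of -0.02 for the Hey1 line and -0.17 for the Hey2 line. None differed by 0.5 in the Hey1 line, against 2.47% of all genes higher and 0.951% lower by that much. In the Hey2 line 4 were lower by 0.5 or more, the 3 Tcl1b genes and Nr5a1, against 4.25% of all genes. The Tcl1b readings may not be separate, since the probe sets of Tcl1b1 and Tcl1b3 carry the shared-probe suffix. Nr5a1 read 6.46 uninduced and 5.92 induced in the Hey2 line. Its other probe set, below the level filter, had -0.21 in that line. Uhrf1, the factor that Dppa3 keeps from chromatin, had -0.07 and -0.02, and Cbfa2t2, the corepressor bound by Prdm14, had -0.10 and 0.04. The kinase genes Akt1 (0.01 and 0.08) and Akt2 (-0.02 and -0.06), whose products Tcl1 binds, differed little. Of 8 primordial germ cell genes compared, with medians of 0.14 and 0.01, 2 were higher by 0.5 or more in each line, against 2.47% of all genes for the Hey1 line and 4.4% for the Hey2 line. Dazl, an RNA-binding protein gene of germ cells, read 7.37 and 8.16 in the Hey1 line and 6.49 and 7.38 in the Hey2 line. The helicase gene Ddx4 had 0.46 and 0.65, and the transcription factor gene Tfap2c 0.60 and 0.27. Others went the other way: Kit had -0.42 and -0.29, and Ifitm1 had -0.41 and -0.18. The summed level of the 8 genes was 14.33 and 14.15 in the Hey1 line and 14.23 and 14.18 in the Hey2 line. This sum weighs most on Ifitm1, the gene with the highest values of the 8. Ifitm1 read 13.59 and 13.18 in the Hey1 line and 13.29 and 13.11 in the Hey2 line. Counted by gene, 6 of 8 were above 0 in the Hey1 line and 4 of 8 in the Hey2 line.

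**Figure D4:**
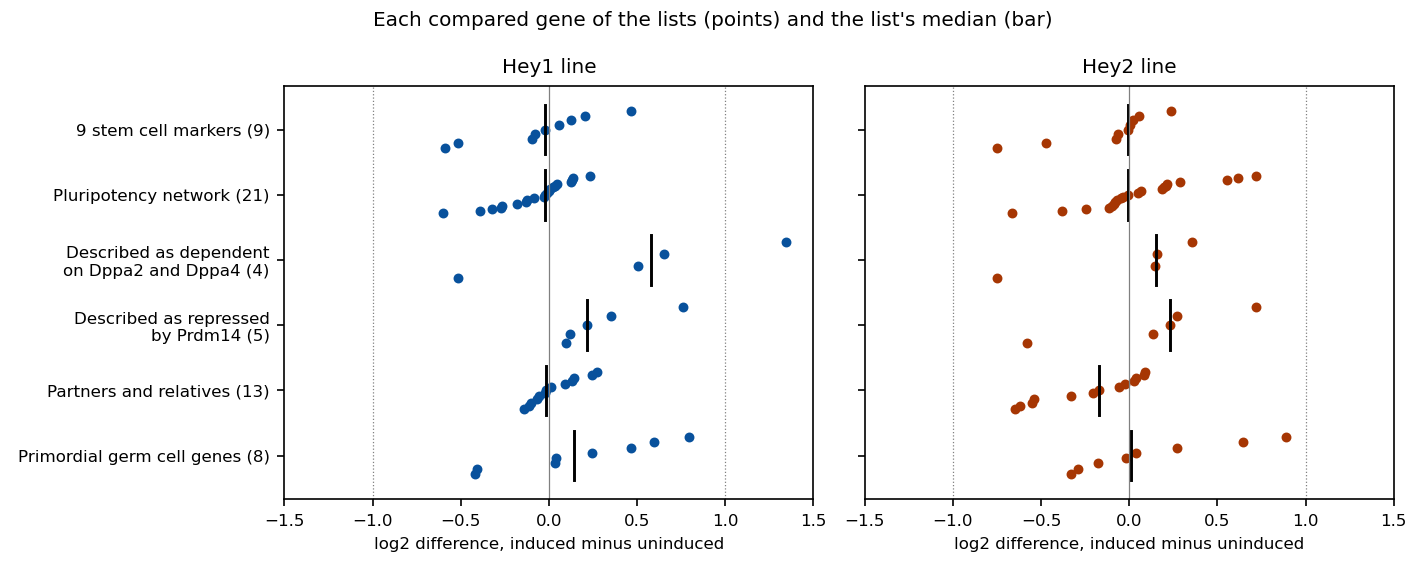
Induced minus uninduced log2 differences in the Hey1 line (left) and the Hey2 line (right) for the 9 genes and for the compared genes of 5 related lists, with numbers of genes in brackets. Each point is 1 gene, bars are list medians, and dotted lines mark 2-fold. The 9 genes centre on 0 (medians -0.02 and -0.01), with Tcl1 and Nr0b1 to the left, and the list tied to Prdm14 centres at 0.21 and 0.23.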

How the data were processed

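The authors deposited a log2 value per probe set, made with RMA per the submitters' processing notes, with its version and genome build not given in the sources used here. RMA normalises by quantiles, so each of the 4 arrays has the same distribution (2.67 to 15.20) and a shift of all genes together cannot be seen. Arrays have no sequencing depth, and their number limits the precision. GEO's platform annotation has 1 symbol for 34958 of the 45101 probe sets, several for 932 and none for 9211, and the gene IDs of 34754 single-symbol probe sets were in the RefSeq table of GRCm38.p6.

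A gene was represented by its probe set with the highest mean, and entered the comparisons if any of its 4 values was at least 6.05. Differences were taken between log2 values. The limma 3.58.1 fit (R 4.3.3) used lmFit and eBayes with line and induction as terms, and was tested on simulated data. Python 3.11.15 with pandas 2.3.3 did the rest. Named genes were all members; from each list the genes past 2-fold and the 3 with the largest mean absolute difference; and for members with an SD of 0.3 or more the 3 nearest genes, predicted genes and clone names left out. Other genes, the neighbours included, were picked after seeing their values. The members and lists were chosen with earlier results of these data known. Alternatives were no level filter, a filter at 8.31, cyclic loess, an offset of 32, averaged probe sets per gene, each probe set alone, the other line's uninduced array and another prior variance.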

Additional observations from a re-analysis of the deposited data

Results flagged for a closer look

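For 4 member probe sets the difference between induced and uninduced cells had opposite signs in the lines, and with 1 array per group the difference was not tested. The Hey2-line difference minus the Hey1-line difference was -0.63 for the second probe set of Utf1 (0.31 for the Hey1 line, -0.32 for the other), while the main Utf1 probe set had 0.02. It was -0.25 for the second probe set of Dppa2 (0.10 and -0.15) and -0.22 for Dppa4 (0.21 and -0.01). For Dppa5a it was 0.077 (-0.02 and 0.05).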

How the results depend on the processing

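With 1 array per group no replicate could be left out, and the labels carry no replicate numbers to use as a block; the limma fit pairs the arrays by line. The differences of Tcl1 and Nr0b1 within the lines kept their sign and moved by at most 0.01 under the 5 alternatives of filter, normalisation, offset and mean of probe sets. Against the other line's uninduced array, Nr0b1 had -1.04 in the Hey1 line, so that the number of members past 2-fold became 1, and 0.055 in the Hey2 line; Dppa3 had 0.76 and -0.06, so that 1 member was higher by 0.5 or more in the Hey1 line. In the common response, limma called 3 genes higher and 1 lower with the filter at 8.31, and with the other prior variance 241 and 192, with 2 members. For the difference of the lines it called 65 higher and 46 lower as reported. These counts became 1066 and 798 with the filter at 8.31 (2 members), 227 and 124 with cyclic loess, 681 and 449 with the offset (1 member), 311 and 243 with the mean of probe sets (1 member), 0 and 0 with every probe set alone, and 1543 and 1390 with the other prior variance (4 members). The cause was not tested. Values at the top of the scale (Dppa5a) or below the filter (the third Utf1 probe set) limit what a difference there can show.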
